A study of Mus musculus with 43 samples.

Results

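Myelin is the membrane that oligodendrocytes wrap around axons in the brain, and it is built from a small set of abundant proteins and from galactolipids. The genes described here were 8 members of that set, namely Mbp, Mobp, Mag, Mog, Cnp, Ugt8a, Mal and Cldn11. They were picked by gene name from a table of 42349 entries, and each name matched 1 entry of its own. Their levels were read in 4 brain groups, with liver, skeletal muscle and white adipose tissue (WAT) as background.

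The samples were female mice aged 15 months, wild type or labelled as lacking insulin receptor substrate 1 in all tissues (Irs1-/-), which is an adaptor protein that carries the signal of the insulin and IGF1 receptors into the cell. Wild type mice fed freely formed the group WT_AL, and wild type mice held for 12 months on a diet cut by 30% formed the group WT_DR. Irs1-/- mice fed freely and restricted in the same way formed the groups labelled KO_AL and KO_DR. All groups ate the same standard chow. Messenger RNA from each tissue was sequenced, in 2 brain libraries for WT_AL and 3 for each of the other groups, which made 11 brain libraries of 43 in all. Which part of the brain was taken is not given in the sources used here.

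Levels are FPKM, fragment counts scaled for transcript length and for library size. The authors normalised the libraries by a geometric mean over samples. The table gives 1 pooled FPKM for each group with the authors' 95% interval, and no value for a single library, so the spread between mice is seen only through that interval. Log2 differences between groups were tested with a 2-sided Wald test whose standard error (SE) came from those intervals, with a false discovery rate (FDR) of 10% over every entry tested. The depth of the libraries is not known from this table. The precision did differ between groups, as seen in the median SD of entries with an FPKM of at least 1 in the group. It was 45.7% of the FPKM in WT_AL, 27.2% in WT_DR, 40.1% in KO_AL and 29.8% in KO_DR.

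In brain the RNA level of the targeted gene was not lower in the groups labelled KO. Irs1 was at 2.47 FPKM in WT_AL (0.793 to 4.16), 1.62 in WT_DR (1.03 to 2.21), 3.49 in KO_AL (1.36 to 5.61) and 4.14 in KO_DR (2.41 to 5.87). Both groups labelled KO were thus above both wild type groups, and the difference between KO_DR and WT_DR passed the FDR (log2 difference 1.35, SE 0.40). That between KO_AL and WT_AL did not pass (0.50, SE 0.66). In liver and skeletal muscle both groups labelled KO also lay above both wild type groups. WAT differed, with Irs1 at 2.58 FPKM in KO_DR (1.54 to 3.62) and 6.56 in WT_DR (2.33 to 10.8). Free-fed WAT was at 5.37 in KO_AL and 2.47 in WT_AL. Which part of the gene the mutation removes is not given in the sources used here. Every direction by genotype below rests on the labels.

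In these tissues the members have separate jobs. Mbp and Mobp encode small basic proteins that hold the inner faces of compact myelin together. Mag and Mog encode adhesion proteins of the immunoglobulin family, Mag on the innermost myelin layer facing the axon and Mog on the outermost layer of the sheath. Cnp encodes a phosphodiesterase of the non-compact myelin channels, and Ugt8a encodes the enzyme that adds galactose to ceramide to make the main myelin galactolipid. Mal and Cldn11 encode proteins that cross the membrane 4 times, Mal sorting membrane cargo and Cldn11 forming the tight junctions of the sheath.

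Mag was one of the members with a difference between brain groups that passed the FDR, and the region before its start is shown with those of 3 other members that held a searched motif. The stretches are the 250 bases upstream of the transcription start in the RefSeq annotation of GRCm38.p6, read 5′ to 3′ on the gene's own strand. Capitals mark ACAAAG, a core site of SOX factors such as Sox10, and CTGGCAC or CTGGTAC, forms of the site bound by the myelin regulator Myrf, on either strand. Mag lies on the minus strand at chr7:30914864-30915113, Cnp on the plus strand at chr11:100574689-100574938, Mog on the minus strand at chr17:37023399-37023648 and Mobp on the plus strand at chr9:120149492-120149741.
Mag: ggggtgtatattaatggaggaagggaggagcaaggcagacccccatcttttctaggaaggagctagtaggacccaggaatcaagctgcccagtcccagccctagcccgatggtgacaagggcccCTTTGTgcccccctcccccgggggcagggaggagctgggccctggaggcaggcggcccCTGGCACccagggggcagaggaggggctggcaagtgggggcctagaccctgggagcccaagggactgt
Cnp: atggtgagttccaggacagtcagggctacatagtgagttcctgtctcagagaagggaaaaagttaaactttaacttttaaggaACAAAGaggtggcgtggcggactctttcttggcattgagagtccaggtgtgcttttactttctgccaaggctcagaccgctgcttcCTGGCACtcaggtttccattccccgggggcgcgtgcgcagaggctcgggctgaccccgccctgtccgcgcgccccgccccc
Mog: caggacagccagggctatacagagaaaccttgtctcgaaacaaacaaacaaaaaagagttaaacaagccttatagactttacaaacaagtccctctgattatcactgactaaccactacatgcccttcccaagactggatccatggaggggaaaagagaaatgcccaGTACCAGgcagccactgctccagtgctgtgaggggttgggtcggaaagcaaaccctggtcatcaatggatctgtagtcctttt
Mobp: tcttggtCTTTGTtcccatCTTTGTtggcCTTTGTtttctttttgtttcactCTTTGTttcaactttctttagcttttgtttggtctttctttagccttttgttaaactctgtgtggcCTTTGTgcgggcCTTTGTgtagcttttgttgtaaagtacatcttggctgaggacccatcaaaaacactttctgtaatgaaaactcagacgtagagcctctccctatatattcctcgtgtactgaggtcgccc

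The table of promoters held 7 of the members, and Mbp was the one without an entry. ACAAAG occurred in 3 of the 7 members (Cnp, Mag and Mobp), in 4 of the 9 member promoters, and in 16.5% of all 32851 promoters. Mobp held 6 copies. CTGGCAC occurred in Cnp and Mag, in 3 of the 9 member promoters, and in 4.19% of all promoters. CTGGTAC occurred in Mog, in 1 of the 9, and in 1.83% of all promoters. AACAAT, a second SOX core, and the E-box CAGCTG of the Olig factors were in none of the 7, against 9.42% and 13.0% of all promoters. In Mag the CTGGCAC match began at position -68 from the start and the ACAAAG match at position -126. CAGCTG can share its last letters with the first of CTGGCAC or CTGGTAC, and none of the matches shown overlapped. These are matches of letters, and nothing in the data measured binding there.

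In the GRCm38 gene annotation Mag spans bases 30899176 to 30914873 of chromosome 7 and overlaps no other gene. Cnp spans bases 100574904 to 100591729 of chromosome 11 and runs into Dnajc7, which is read from the opposite strand, and the table gives both genes 1 shared locus. Mog and Mobp each overlap a noncoding gene. Whether the counting used strand is not stated, so reads of Cnp and Dnajc7 in their shared stretch cannot be told apart.

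The labelled tissue matched the members. Sox10, a factor that drives myelin genes and not a member, ranged from 17.3 to 37.4 FPKM over the brain groups and from 0 to 3.10 over the groups of the other tissues. Each member was higher in its lowest brain group than in its highest group of any other tissue. The ratio between those values was 12.4 for Cnp, 16.2 for Ugt8a, 18.5 for Mbp, 19.8 for Mal, 48.1 for Mag, 66.3 for Cldn11, 90.8 for Mog and 316 for Mobp. Mbp reached 74.7 FPKM in skeletal muscle and 17.1 in WAT, and Cnp reached 17.6 in WAT, so these genes were not silent outside the brain. Mog and Cldn11 were listed at 0 in 3 of the 4 liver groups.

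**Figure D1:**
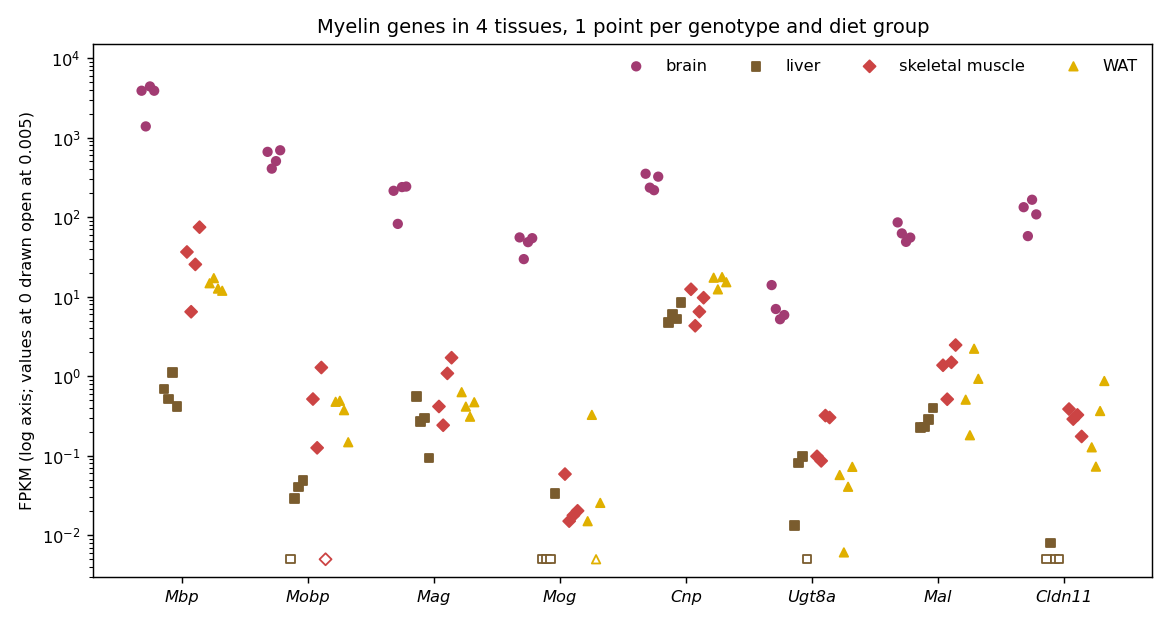
FPKM of each member (log axis) in the 4 tissues, with 1 point for each genotype and diet group and values listed at 0 drawn open at the bottom. The brain points of every member lie above all its other points, from 12.4 times for Cnp to 316 times for Mobp.

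Set against each other tissue of the same genotype and diet, members were tested in 86 of 96 pairings, and 77 of these passed the Wald test, all higher in brain. The other 10 pairings had an FPKM of 0 outside the brain and were not tested. Against liver 5 of 5 tested members passed in WT_AL, 6 of 7 in WT_DR, 6 of 6 in KO_AL and 4 of 6 in KO_DR, where 11.5%, 21%, 19.1% and 23.5% of all entries tested were called higher in brain. Against skeletal muscle 8 of 8 passed in WT_AL, 7 of 8 in WT_DR, 7 of 8 in KO_AL and 6 of 7 in KO_DR, beside 15.7%, 21.7%, 20.4% and 25.4% of all entries. Against WAT 7 of 8 passed in WT_AL, 7 of 8 in WT_DR, 7 of 7 in KO_AL and 7 of 8 in KO_DR, beside 15.7%, 11.9%, 16.4% and 17.7%. Those that did not pass had a level close to 0 outside the brain and thus a wide SE, such as Mog in skeletal muscle of WT_DR, at 0.0151 FPKM against 29.6 in brain.

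Within the brain the members covered a wide range of levels. Mbp was the most abundant, at 3877 FPKM in WT_AL (authors' 95% interval 0 to 10003), 1380 in WT_DR (210 to 2551), 4391 in KO_AL (1590 to 7192) and 3877 in KO_DR (0 to 9166). WT_DR was the lowest group, but its interval lay inside that of WT_AL and overlapped that of KO_AL. Mobp, the other compact myelin gene, was at 661 in WT_AL (60.8 to 1261), 407 in WT_DR (223 to 590), 505 in KO_AL (227 to 784) and 692 in KO_DR (375 to 1009). WT_DR was again the lowest and all 4 intervals overlapped.

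Of the adhesion genes, Mag stood at 214 FPKM in WT_AL (17.6 to 411), 82.2 in WT_DR (44.4 to 120), 238 in KO_AL (98.0 to 379) and 242 in KO_DR (142 to 342). The intervals of WT_DR and KO_DR did not overlap, as for 1.95% of all entries tested in that comparison. The levels of WT_AL, KO_AL and KO_DR lay close together. Mog was at 55.5 in WT_AL (16.5 to 94.5), 29.6 in WT_DR (15.1 to 44.2), 48.4 in KO_AL (21.3 to 75.6) and 54.3 in KO_DR (24.7 to 83.9). Its order was that of a low WT_DR and 3 higher groups, with every interval overlapping.

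The enzyme genes had another order. Cnp was at 351 FPKM in WT_AL (77.6 to 624), 235 in WT_DR (112 to 357), 218 in KO_AL (75.7 to 360) and 322 in KO_DR (151 to 493). Ugt8a, the least abundant member, was at 14.0 in WT_AL (4.71 to 23.2), 6.99 in WT_DR (5.22 to 8.76), 5.20 in KO_AL (3.48 to 6.92) and 5.87 in KO_DR (4.07 to 7.68). For Ugt8a WT_AL was the group apart, with an interval that still overlapped all others, and both genes were lowest in KO_AL.

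The genes of 4-pass membrane proteins differed from each other. Mal was at 85.7 FPKM in WT_AL (29.9 to 142), 62.4 in WT_DR (35.3 to 89.4), 48.8 in KO_AL (19.9 to 77.8) and 55.3 in KO_DR (31.3 to 79.3), so it followed the order of Ugt8a. Cldn11 was at 133 in WT_AL (45.9 to 221), 57.7 in WT_DR (38.7 to 76.7), 165 in KO_AL (83.6 to 247) and 108 in KO_DR (59.5 to 157). Its WT_DR and KO_AL intervals did not overlap, and the share of all entries for which this held was not counted. For every member, groups next to each other in the order had overlapping intervals.

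**Figure D2:**
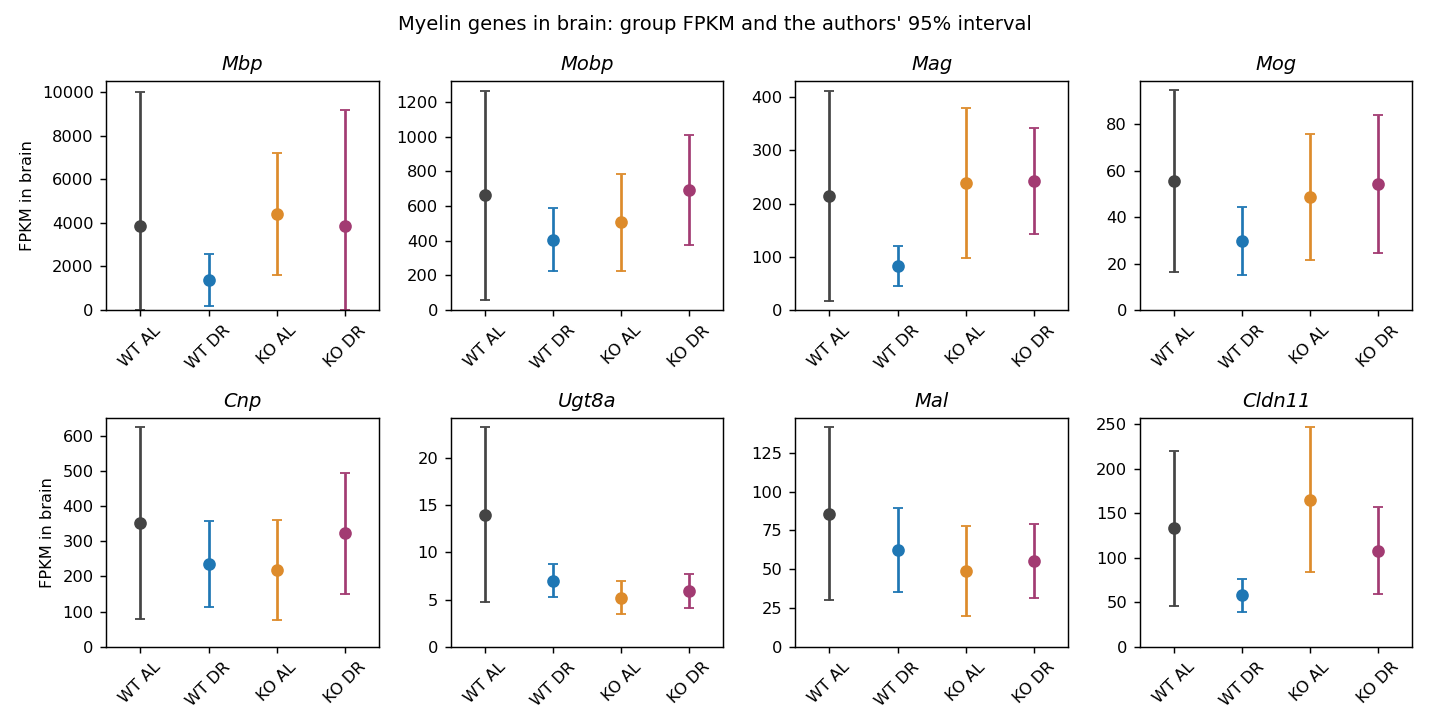
FPKM of the 8 members in the 4 brain groups, each panel with its own axis from 0. Points are the group values and bars the authors' 95% interval. The bars of WT_DR and KO_DR are separate for Mag, as for 1.95% of all entries. Those of WT_DR and KO_AL are separate for Cldn11, where the share of all entries was not counted.

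WT_DR was the lowest group for 5 of 8 members (Mbp, Mobp, Mag, Mog and Cldn11) and the highest for none. Over all 14390 entries with a value in each comparison it was the lowest for 38.8%. The summed FPKM of the members was 5391 in WT_AL, 2260 in WT_DR, 5620 in KO_AL and 5357 in KO_DR, of which Mbp made up 61.1% to 78.1%. Without Mbp the sums were 1514, 880.0, 1229 and 1480. In bulk tissue fewer oligodendrocytes and less RNA in each of them cannot be told apart.

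Dietary restriction in wild type mice was the first comparison. All 8 members were lower in WT_DR than in WT_AL, with a median log2 difference of -0.95, and none passed the Wald test at the FDR of 10%. Of all 15164 entries tested 55.6% were lower, their median was -0.08, and 0.224% passed. The differences were -1.49 for Mbp (SE 1.29), -1.38 for Mag (SE 0.74), -1.21 for Cldn11 (SE 0.53), -1.0 for Ugt8a (SE 0.51), -0.91 for Mog (SE 0.62), -0.70 for Mobp (SE 0.73), -0.58 for Cnp (SE 0.68) and -0.46 for Mal (SE 0.56). At an unadjusted p under 0.05 the Wald test found 1 member, Cldn11, beside 2.22% of all entries. With a smaller SE (each SD divided by the square root of the number of libraries) Cldn11 passed the FDR, as did 1.73%. WT_AL has only 2 libraries, and its intervals were the widest of the 4 groups for each member.

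The wider set of mature oligodendrocyte genes gave the same picture of direction without calls. Of 29 tested, 26 were lower in WT_DR, the median was -0.98, and 0 passed the Wald test, with 8 at an unadjusted p under 0.05 (2.22% of all entries were) and 7 passing with the smaller SE (1.73% of all entries did). The 3 largest differences were -1.96 for Hapln2 (SE 0.80), a matrix link protein of the nodes of Ranvier, -1.62 for Gjb1 (SE 0.54), a connexin of the myelin sheath, and -1.52 for the lineage factor Olig2 (SE 0.49). WT_DR was the lowest group for 23 of the 29 genes (79.3%).

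Loss of Irs1 under free feeding was compared against the same WT_AL group. By label, 3 members were higher in KO_AL and 5 lower, while 41.0% of all entries were lower, the median was -0.29 against 0.13 for all 15264 entries, and 0 members passed the Wald test beside 0.203% of all entries. Ugt8a had the largest difference, -1.43 (SE 0.53, 95% interval -2.47 to -0.38). It was the 1 member at an unadjusted p under 0.05, beside 1.81% of all entries. With the smaller SE it passed, as did 1.41%. Mal was at -0.81 (SE 0.64) and Cnp at -0.69 (SE 0.73), while Mbp at 0.18 (SE 1.23), Mag at 0.15 (SE 0.79) and Cldn11 at 0.31 (SE 0.59) lay near 0 with wide intervals. Of the other mature oligodendrocyte genes 24 of 29 were lower, beside the same 41.0% of all entries, and 0 passed the Wald test. Of these 2 were at an unadjusted p under 0.05 and 1 passed with the smaller SE, beside 1.81% and 1.41% of all entries.

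Genotype under restriction was compared between the groups labelled KO_DR and WT_DR. Mag rose from 82.2 FPKM in WT_DR to 242 in the group labelled KO_DR, a log2 difference of 1.56 (SE 0.45, 95% interval 0.69 to 2.43) or 2.95-fold, which passed the FDR. It was 1 of 8 members called, against 1.16% of 15262 entries in either direction and 0.989% in the higher direction. The non-overlap of its intervals was shared by 1.95% of all entries. The median of all entries was itself 0.23 higher in KO_DR, and relative to that shift Mag was at 1.33. The call was not firm, since Mag did not pass at an FDR of 5%, with a t distribution, after centring on that median, or when the difference was tested on the FPKM scale, where 0.478% of entries passed. The log2 test was also found, in data simulated with errors symmetric on the FPKM scale, to make more false calls than its FDR allows.

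The other members did not pass in that comparison. Mbp was 1.49 higher in KO_DR (SE 1.16), Cldn11 0.91 (SE 0.40), Mog 0.87 (SE 0.53), Mobp 0.77 (SE 0.46) and Cnp 0.46 (SE 0.54), all on the log2 scale. Mal at -0.17 (SE 0.44) and Ugt8a at -0.25 (SE 0.29) had the opposite sign. In all 6 members were higher and 2 lower, with a median of 0.82, and 64.9% of all entries were higher too, so the share of members that were higher was near that of all entries. With the smaller SE 4 members passed (Mag, Cldn11, Mog and Mobp), all higher, beside 14.5% of all entries.

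**Figure D3:**
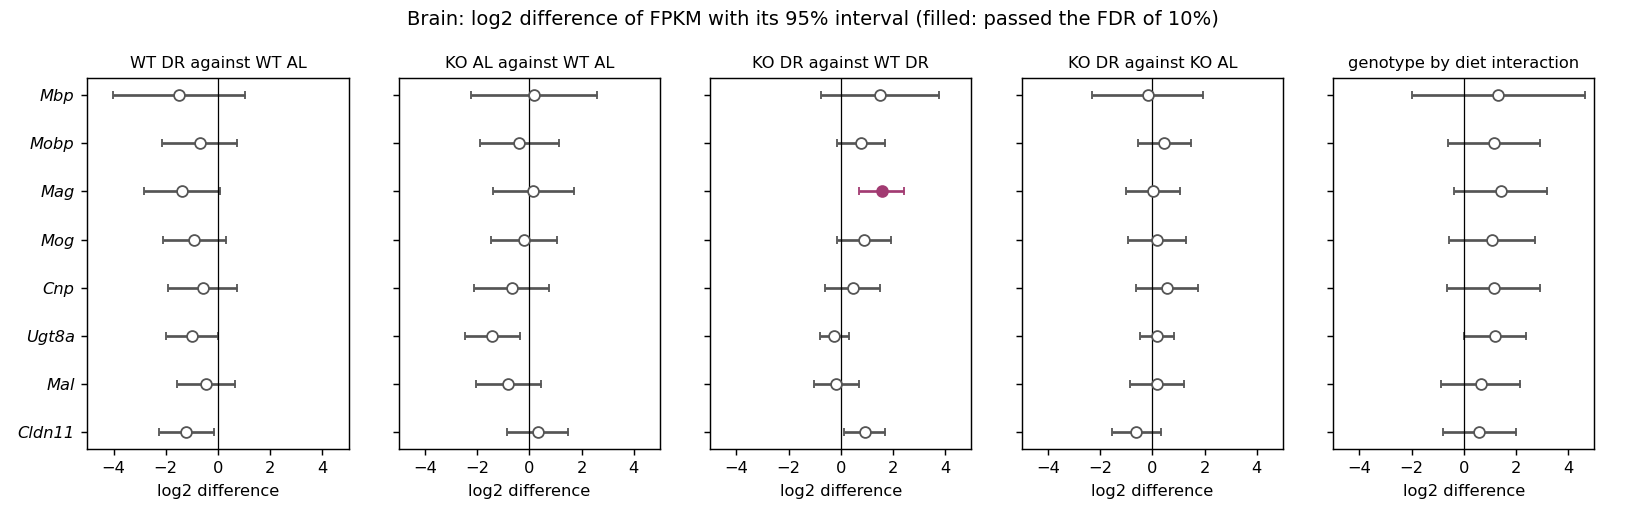
Log2 differences of FPKM for the 8 members in 4 comparisons and the genotype by diet interaction, with bars of the 95% interval. The 8 points of WT_DR against WT_AL all lie below 0, and the filled point is Mag in KO_DR against WT_DR, at 1.56.

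Among the wider mature oligodendrocyte genes 26 of 29 were higher in KO_DR than in WT_DR, beside 64.9% of all entries, with a median of 0.65. Of these genes 3 passed the FDR, beside 1.16% of all entries. Among them were Gjb1, which rose from 16.1 to 47.4 FPKM (log2 difference 1.55, SE 0.38), and the lineage factor Olig1, from 68.3 to 176 (1.37, SE 0.38). Centred on the median of all entries Gjb1 alone passed, and with a t distribution none did. On the FPKM scale 2 did, Gjb1 among them, beside 0.478% of all entries. With the smaller SE 15 passed, beside 18.5% of all entries. WT_DR enters both this comparison and that of restriction in wild type mice, so the low WT_DR values bear on both.

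Genes at other steps gave few calls, and some of them stand in more than 1 list (Olig2, Fa2h, Gal3st1 and Nfasc). Their counts in KO_DR against WT_DR are to be read beside the 64.9% of all entries that were higher and the 1.16% that passed the FDR. At an unadjusted p under 0.05 were 7.50% of all entries, and 18.5% passed with the smaller SE. Of 12 precursor genes found, such as Cspg4 and Gpr17, 9 were higher in KO_DR than in WT_DR and 0 passed the Wald test, with 1 (Olig2, 0.91, SE 0.31) at an unadjusted p under 0.05 and 2 passing with the smaller SE. Of 11 enzymes that make or break down galactosylceramide and sulfatide, the lipids downstream and upstream of Ugt8a, 7 were higher and 0 passed, with 0 at an unadjusted p under 0.05 and 2 passing with the smaller SE. Fa2h, which hydroxylates their fatty acids, was at 0.93 (SE 0.50) and Gal3st1, which makes sulfatide, at 0.64 (SE 0.43). Of 11 axonal and paranodal partners of myelin 10 were higher and 1 passed, the heavy neurofilament gene Nefh at 1.66 (SE 0.39).

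Within the groups labelled KO, no difference of a member between feeding regimes passed. The median difference of KO_DR from KO_AL was 0.17, from -0.61 for Cldn11 (SE 0.48) to 0.57 for Cnp (SE 0.61), and 0 of 8 passed the Wald test beside 0.365% of 15349 entries, with 0 at an unadjusted p under 0.05 and 0 with the smaller SE. Mag differed by 0.02 (SE 0.52), with a 95% interval from -0.99 to 1.04, and Mbp by -0.18 (SE 1.09), with an interval from -2.31 to 1.95, so sizeable differences in either direction remain possible. Of the wider oligodendrocyte genes 22 of 29 were higher in KO_DR than in KO_AL, beside 52.2% of all entries, and 0 passed the Wald test. Of these 1 was at an unadjusted p under 0.05 and 2 passed with the smaller SE, beside 2.51% and 4.33% of all entries. KO_DR against WT_AL gave a median of -0.08 and 0 of 8 passing beside 0.105% of 15180 entries. Ugt8a, at -1.25 (SE 0.53), was the 1 member at an unadjusted p under 0.05, beside 0.646% of all entries. With the smaller SE 0 members passed, beside 0.27%. This comparison shares WT_AL with both comparisons to free-fed wild type mice above.

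The remaining pair of brain groups, KO_AL against WT_DR, was a later addition, made with the values already known, and its groups differ in both genotype label and diet. Cldn11 was higher in KO_AL, at 165 against 57.7 FPKM, a log2 difference of 1.52 (SE 0.43, 95% interval 0.68 to 2.36) or 2.87-fold, and passed the FDR, as did 0.577% of 15255 entries. It was the 1 member of 8 to pass. Mag was at 1.54 (SE 0.54) and Mbp at 1.67 (SE 0.77), which did not pass, while Cnp, Ugt8a and Mal had the opposite sign. In all 5 members were higher, 62.5%, beside 64.8% of all entries, and the median was 0.51 against 0.18 for all. The call of Cldn11 was no firmer than that of Mag, since it was lost at an FDR of 5%, with a t distribution, without the filter on low FPKM, after centring and on the FPKM scale. Of the wider oligodendrocyte genes 24 of 29 were higher and 0 passed the Wald test. Of these 7 were at an unadjusted p under 0.05, beside 540 of all 15255 entries. With the smaller SE 7 passed, beside 6.59% of all entries.

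The interaction asked whether restriction acted differently in the 2 genotypes as labelled. It was positive for all 8 members, from 0.60 for Cldn11 (SE 0.72) to 1.40 for Mag (SE 0.90), with a median of 1.15 against 0.10 for all 15655 entries, of which 54.1% were positive. None of the 8 passed the Wald test, beside 0.396% of all entries, and 0 were at an unadjusted p under 0.05. Ugt8a, at 1.18 (SE 0.61), passed with the smaller SE, as did 5.15% of all entries. All 29 of the wider mature oligodendrocyte genes were positive too, with a median of 1.27 and 0 passing the Wald test. Of these 8 were at an unadjusted p under 0.05, beside 3.53% of all entries, and 10 passed with the smaller SE, beside 5.15%.

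Genes that mark brain regions also differed between the groups, in part in the same order as the members. Of all entries 0.224% passed the FDR in WT_DR against WT_AL and 1.16% in KO_DR against WT_DR. The share was 0.365% in KO_DR against KO_AL, 0.105% in KO_DR against WT_AL and 0.396% in the interaction. The 8 genes of brainstem and spinal cord summed to 22.6 FPKM in WT_AL, 1.80 in WT_DR, 5.92 in KO_AL and 23.1 in KO_DR. Slc6a5, the glycine transporter of inhibitory neurons there, was at 8.49, 0.457, 0.854 and 9.99 FPKM in that order, and passed the FDR lower in WT_DR than in WT_AL (-4.21, SE 0.89) and higher in KO_DR than in WT_DR (4.45, SE 0.75). Glra1, a glycine receptor subunit, passed higher in KO_DR than in WT_DR as well (3.01, SE 0.86). Only 3 of the 8 brainstem genes could be tested in that comparison. The 8 choroid plexus genes summed to 198, 69.7, 77.6 and 337 FPKM, with Kl passing in KO_DR against WT_DR (1.83, SE 0.52). The 8 cerebellar genes summed to 118, 101, 131 and 309, with 3 passing there, namely Cbln1 (2.51, SE 0.43), Cbln3 (6.22, SE 1.22) and Pvalb (2.49, SE 0.41), and with Gabra6 listed at 0 in WT_AL. Brainstem and choroid plexus sums were low in KO_AL, where the sum of the members was highest through Mbp. The regional sums leaned on few genes too. Ttr of the choroid plexus was at 164 FPKM in WT_AL and 48.5 in KO_AL, and Glra1 at 9.19 and 2.38. In KO_AL 6 of the 8 choroid plexus genes were lower than in WT_AL and 2 higher, while 41.0% of all entries were lower. Without Mbp the members summed to 1514, 880, 1229 and 1480 FPKM, and the wider oligodendrocyte genes to 2736, 1471, 1970 and 2259. By those sums KO_AL lay above WT_DR and below WT_AL and KO_DR. Of the single members Mobp and Mog had KO_AL in that place, and the others did not. Cnp, Ugt8a and Mal were lowest in KO_AL, and Mag was higher there (238) than in WT_AL (214). Cldn11 (165) and Mbp were highest in KO_AL. The cerebellar sum was high in KO_DR alone. Slc6a5 (3.55, SE 0.88) and Cbln3 (5.22, SE 1.17) also passed in KO_DR against KO_AL, and Cbln3 in KO_DR against WT_AL (5.47, SE 1.27), where no member passed. The genotype by diet interaction passed for Slc6a5 (7.76, SE 1.25) and Glra1 (4.96, SE 1.31).

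Striatal genes went the other way. All 8 were higher in WT_DR than in WT_AL (median 0.78), beside 44.4% of all entries. All 8 were lower in KO_DR than in WT_DR (median -0.74), beside 35.1%. In either comparison 0 passed the Wald test. At an unadjusted p under 0.05 were 1 and 2, beside 2.22% and 7.50% of all entries. With the smaller SE 1 and 4 passed, beside 1.73% and 18.5%. In KO_DR against WT_DR 0 of 10 genes passed in each of the lists for neurons, astrocytes, microglia and endothelium, with 1 at an unadjusted p under 0.05, in the endothelial list. The numbers passing there with the smaller SE were 1, 3, 3 and 1, against 18.5% of all entries. Of the astrocyte genes 8 of 10 were higher (median 0.43), beside 64.9% of all entries, and of the microglial genes 8 of 10 lower (median -0.55), beside 35.1%. Regions of the brain differ in their content of myelin, and the part of these regional differences in the levels of the members was not tested.

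**Figure D4:**
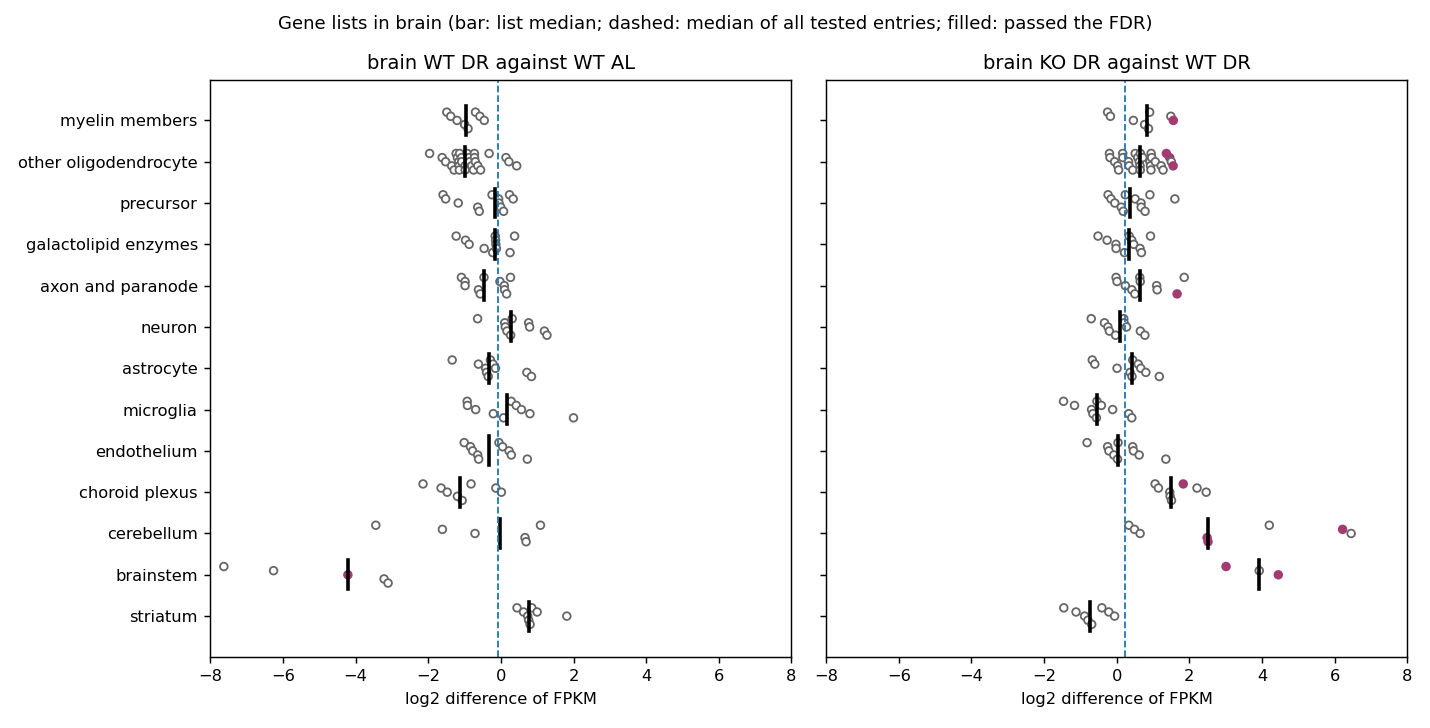
Log2 differences of FPKM for gene lists in brain, for WT_DR against WT_AL (left) and KO_DR against WT_DR (right), with 1 point per tested gene, a bar at the list median and a dashed line at the median of all entries (-0.08 and 0.23). The medians of the myelin members and the other oligodendrocyte genes lie left of the line in the left panel and right of it in the right panel. So do those of the precursor, galactolipid, axon and paranode, astrocyte, brainstem and choroid plexus lists. Filled points passed the FDR.

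The entries whose pattern over the 4 brain groups was most like the mean pattern of the members were Tmem9, Gas6, Pfkfb3, Nfasc and Itih3, out of 8668 entries ranked. Likeness was the root mean square distance between centred log2 FPKM, which was 0.0204 for Tmem9 and 0.0333 for Itih3. Nfasc encodes neurofascin, an adhesion protein at the junction of axon and myelin. Its pattern was poorly determined, with log2 differences from WT_AL of -0.43 (SE 3.43) in KO_AL and -0.99 (SE 3.43) in WT_DR. The members themselves ranked from 60 for Mog to 6584 for Ugt8a, so they were not alike among themselves, and 4 groups are few points for such a ranking.

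Of 12 peripheral myelin and Schwann cell genes, some of which oligodendrocytes also express, such as Sox10, 9 could be tested in brain between KO_DR and WT_DR. All 9 were higher, beside 64.9% of all entries, and 0 passed the Wald test, with 0 at an unadjusted p under 0.05. With the smaller SE 2 passed, as did 18.5% of all entries.

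Skeletal muscle holds nerve, and its Mbp moved between groups. This comparison was chosen after the values were seen. Mbp was at 36.4 FPKM in WT_AL, 6.46 in WT_DR, 25.4 in KO_AL and 74.7 in KO_DR of muscle, and it passed the FDR both lower in WT_DR than in WT_AL (-2.50, SE 0.67, beside 1.4% of all entries) and higher in KO_DR than in WT_DR (3.53, SE 0.68, beside 2.23%). Prx (3.38, SE 0.70) and Pmp22 (1.37, SE 0.42), genes of peripheral myelin made by Schwann cells, passed in KO_DR against WT_DR. Cnp in muscle was at 1.17 (SE 1.09) there and Mag at 2.82 (SE 2.46), and neither passed. How much nerve each muscle sample held was not measured.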

How the data were processed

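Single-end reads of poly(A) RNA, made on an Ion Proton, were trimmed by the authors with cutadapt 1.5, mapped to GRCm38 with BBmap and summarised per gene with Cuffdiff 2.2.1. The deposited table gives, as the authors' values, 1 FPKM per gene and group with its 95% interval, pooled over 2 or 3 libraries. From these the distance from the FPKM to the upper bound was halved to give the SD, and the SE of a log2 difference by the delta method (Python 3.11.15, numpy 2.4.6, pandas 2.3.3, scipy 1.17.1, matplotlib 3.10.9). Entries with status OK, an FPKM above 0 in each group compared and at least 1 in one of them were tested with a 2-sided Wald test and Benjamini-Hochberg adjustment at an FDR of 10%. Groups came from the labels. Of the 16 groups, the WAT group WT_DR has 2 libraries in the labels.

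The test was run on simulated data with 2 forms of error. With errors symmetric on the log scale it recovered part of the changed genes, and false calls were near the FDR, somewhat above it in most comparisons. With errors symmetric on the FPKM scale, the form the authors' intervals take, false calls far exceeded the FDR in every pair of brain groups. A test of the difference on the FPKM scale was therefore added as an alternative, after the data were seen. It made fewer false calls in the second form, still above the FDR in each pair, and found fewer changed genes. Calls by either test are therefore provisional.

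Members and lists were chosen with earlier results of these data known. Named genes were all members, Irs1, list genes that passed the FDR in a brain comparison, otherwise up to 4 with the largest difference per list, and the 5 nearest patterns. Sox10, Gpr17 and the peripheral myelin genes in muscle were named outside that rule. The list genes Trf, Pdgfra, Neurod1 and Cadm3 were found only in entries that join several genes and were not used, and Lhfpl3 and Drd1 were not matched. Alternatives covered the FDR, interval overlap, a t distribution, pseudocounts of 0.1 and 1, filters on low FPKM, a 2-fold minimum, centring, joined entries and a smaller SE. Some genes of the lists are not reported here by name.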

Additional observations from a re-analysis of the deposited data

How the results depend on the processing

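Of 296 alternative values, the counts of members called changed as follows. With the smaller SE, 1 member passed in KO_AL against WT_AL (Ugt8a), 1 in WT_DR against WT_AL (Cldn11), 4 in KO_DR against WT_DR and 1 in the interaction (Ugt8a), where the main test gave 0, 0, 1 and 0. In KO_DR against WT_DR 0 members passed at an FDR of 5%, with a t distribution, after centring on the median, or on the FPKM scale. The adjusted p of Mag by the Wald test was 0.058, and over the alternatives it ranged from 1.7e-07 with the smaller SE to 1.0 with a t distribution, with 0.25 after centring and 0.27 on the FPKM scale. Of the other oligodendrocyte genes in that comparison 3 passed, beside 1.16% of all entries, against 0 with a t distribution and 1 after centring. With the smaller SE 15 passed, beside 18.5% of all entries. In KO_AL against WT_DR 1 member passed (Cldn11), against 3 with the smaller SE and 0 at an FDR of 5%, with a t distribution, without the filter on low FPKM, after centring, or on the FPKM scale. The adjusted p of Cldn11 by the Wald test was 0.073 and ranged from 1.5e-07 to 1.0. Centring reversed the sign of 3 differences near 0, Mag in KO_DR against KO_AL (-0.0071), Mbp in KO_DR against WT_AL (-0.15) and Mobp in KO_DR against WT_AL (-0.089). Signs of all other member differences held under the pseudocounts, centring and the smaller SE.

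No paired analysis was possible because the table holds 1 pooled value per group, and for the same reason leaving out each replicate was not run. The interval of WT_AL, from 2 libraries, limits the 3 comparisons with it and the interaction, and the cause of the changed counts was not tested. The comparison of KO_AL with WT_DR, the FPKM-scale test and all alternatives for the other oligodendrocyte genes were chosen after the data were seen.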
